A study of Mus musculus with 24 samples.

Results

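The Krüppel-like factors are zinc finger proteins that bind CACCC boxes and GC-rich sites in promoters, some to activate and others to repress. In T cells Klf2 is known for holding naive cells in quiescence and for driving the genes that let mature thymocytes leave the thymus. The kinase Erk5, acting through Mef2 proteins, and the Foxo factors are known to raise Klf2, while Klf10 is a target of TGF-β signals. Described here are 8 members, Klf2, Klf3, Klf4, Klf6, Klf7, Klf9, Klf10 and Klf13, taken as every probeset that the array annotation gives to one of these symbols or to an older alias. They had 24 probesets in all, of which 12 passed the filter on low signal, so that 7 of the 8 genes stood among the 7831 genes that could be tested. Klf4 was the gene left out.

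RNA from sorted thymocytes of female mice, 6 to 8 weeks old, of the C57BL10.H2k (B10) and autoimmune-prone NOD strains, the latter also carrying the H2k haplotype per the study's text, was measured on 24 arrays, 3 pools of cells for each of 8 conditions. All mice carried the 3A9 TCR transgene (TCR), and TCR insHEL mice also carried a hen egg lysozyme transgene that an insulin promoter drives in the thymic medulla. Pre-selection cells (PreS) were CD4+CD8+CD69- cells without the 1G12 clonotype from TCR or TCR insHEL mice. Cells beginning positive selection (S+) were CD4+CD8lowCD69+1G12+ cells of TCR mice, and cells beginning negative selection (S-) were cells of the same surface phenotype from TCR insHEL mice. The cells were sorted in the presence of the transcription inhibitors actinomycin D and α-amanitin. Because S+ and S- came from mice of different genotype, they differ by the transgene as well as by the selection signal. A signal is the probeset value of the array software on a linear scale. Both PreS groups of a strain were merged (n = 6), and a difference is on the log2 scale of values standardized for each array, with its standard error (SE). Fewer cells of a type and less RNA per cell cannot be told apart in such pools.

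The sorted cells carried the genes of thymocytes, with a summed signal of 8 thymocyte markers between 7661 and 17890 on every array. Macrophage and dendritic cell markers were also present, and their summed signal over 10 genes ran from 495 to 1321 in B10 PreS, 1387 to 2198 in B10 S+ and 1131 to 2448 in B10 S-. In NOD it ran from 507 to 1089 in PreS, 1666 to 2762 in S+ and 1210 to 1568 in S-. Itgam, a defining marker of these cells, lay under 32 on every array, and Ctss, a lysosomal protease, rose in all 4 comparisons with PreS (2.11 and 1.57 in B10 S+ and S-, 2.19 and 1.64 in NOD). Csf1r, the receptor of macrophage growth, was higher in NOD S+ than in NOD PreS by 2.37 (limma adjusted p = 0.00249). Of 8 measured markers of this list 4 were called higher in NOD S+ against PreS (Ctss, Csf1r, Adgre1 and Itgax), 1 in NOD S- and in B10 S- (Ctss), and in B10 S+ 1 higher (Ctss) and 1 lower (Mpeg1). Between strains 2 were called higher in NOD S+ than in B10 S+, Mpeg1 (3.02, adjusted p = 0.00305) and Itgax (1.43, adjusted p = 0.0371). In B10 Csf1r differed from PreS by -0.06 in S+ and by 0.13 in S-. Endothelial markers summed to between 140 and 248, with Tek, Tie1 and Vwf under 32 throughout. B cell markers summed to between 141 and 572, those of the thymic epithelium to between 101 and 255, and those of red cells to between 49.1 and 319. The RNA of the NOD S+ pools was the most uneven: the log2 ratio of 3′ to 5′ control signals, which rises as transcripts are shortened, was 5.82, 5.14 and 1.59 on the 3 arrays, against 0.99 to 4.94 on the other 21. Macrophages and endothelium also express Klf genes, and the part of other cells in the results was not tested.

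The promoters of 3 members are shown for the boxes of the family itself and of Foxo factors that lie next to the start of each gene. These 3 were called in a comparison described below. The Klf9 probeset passed the filter only through groups in which it was high, so its call is a description. Each is the run of 250 bases before the RefSeq start of the gene, on build GRCm38.p6, written 5′ to 3′ on the strand of the gene. Capitals mark CACCC boxes on either strand (GGGTG on the strand shown) and the Foxo core GTAAACA.
Klf2, chr8:72318812-72319061, plus strand: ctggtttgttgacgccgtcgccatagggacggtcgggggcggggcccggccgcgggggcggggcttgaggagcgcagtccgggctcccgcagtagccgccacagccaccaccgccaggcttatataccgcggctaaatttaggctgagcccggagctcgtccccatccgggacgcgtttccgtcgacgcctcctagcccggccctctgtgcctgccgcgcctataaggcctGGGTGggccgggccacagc
Klf9, chr19:23140976-23141225, plus strand: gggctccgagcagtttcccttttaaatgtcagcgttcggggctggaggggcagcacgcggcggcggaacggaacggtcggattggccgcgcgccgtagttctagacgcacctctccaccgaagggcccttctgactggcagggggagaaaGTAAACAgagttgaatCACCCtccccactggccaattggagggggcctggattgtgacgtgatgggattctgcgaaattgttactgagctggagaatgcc
Klf13, chr7:63938916-63939165, minus strand: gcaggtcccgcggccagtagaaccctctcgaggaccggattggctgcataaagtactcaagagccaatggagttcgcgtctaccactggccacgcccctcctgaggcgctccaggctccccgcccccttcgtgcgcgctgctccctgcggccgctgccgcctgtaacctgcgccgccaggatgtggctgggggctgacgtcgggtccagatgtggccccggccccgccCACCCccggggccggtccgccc

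Promoters were found for 7 of the 8 members. CACCC, the box that these proteins themselves bind, stood in 5 of the 7 (Klf2, Klf3, Klf7, Klf9 and Klf13), and in 51.2% of 27025 mouse promoters of the same length. The GC box GGGCGG, read on both strands and free to overlap a CACCC box, stood in 6 of the 7, all but Klf9, against 32.4% of all promoters. GTAAACA stood in the Klf9 promoter and in no other of the 7, against 3.08% of all. These matches describe the letters of the window and no binding was measured.

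Klf2 was the one member that rose with selection in both strains. On the B10 arrays its probeset gave 88.0, 124 and 114 in PreS cells of TCR mice and 118, 73.8 and 184 in PreS cells of TCR insHEL mice. In B10 S+ it gave 502, 626 and 727. In B10 S- it gave 361, 566 and 353. Every S+ and S- array of B10 therefore lay above all 6 PreS arrays. The difference from PreS was 2.38 (SE 0.27, limma adjusted p = 3.4e-05) in S+, a 5.22-fold rise, and 1.82 (SE 0.27, adjusted p = 0.00065) in S-, a 3.52-fold rise. Both passed the threshold under all 26 alternative settings tried, with S+ between 2.26 and 2.70 and S- between 1.58 and 1.95. Arrays hybridized on the same day gave differences of 3.20 and 2.33 for S+ and 1.53 for S-. Klf2 was the only 1 of 7 members called in B10 S+ and in B10 S-, where 7.37% and 4.42% of all 12838 probesets were called higher and 9.44% and 6.8% lower.

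**Figure D1:**
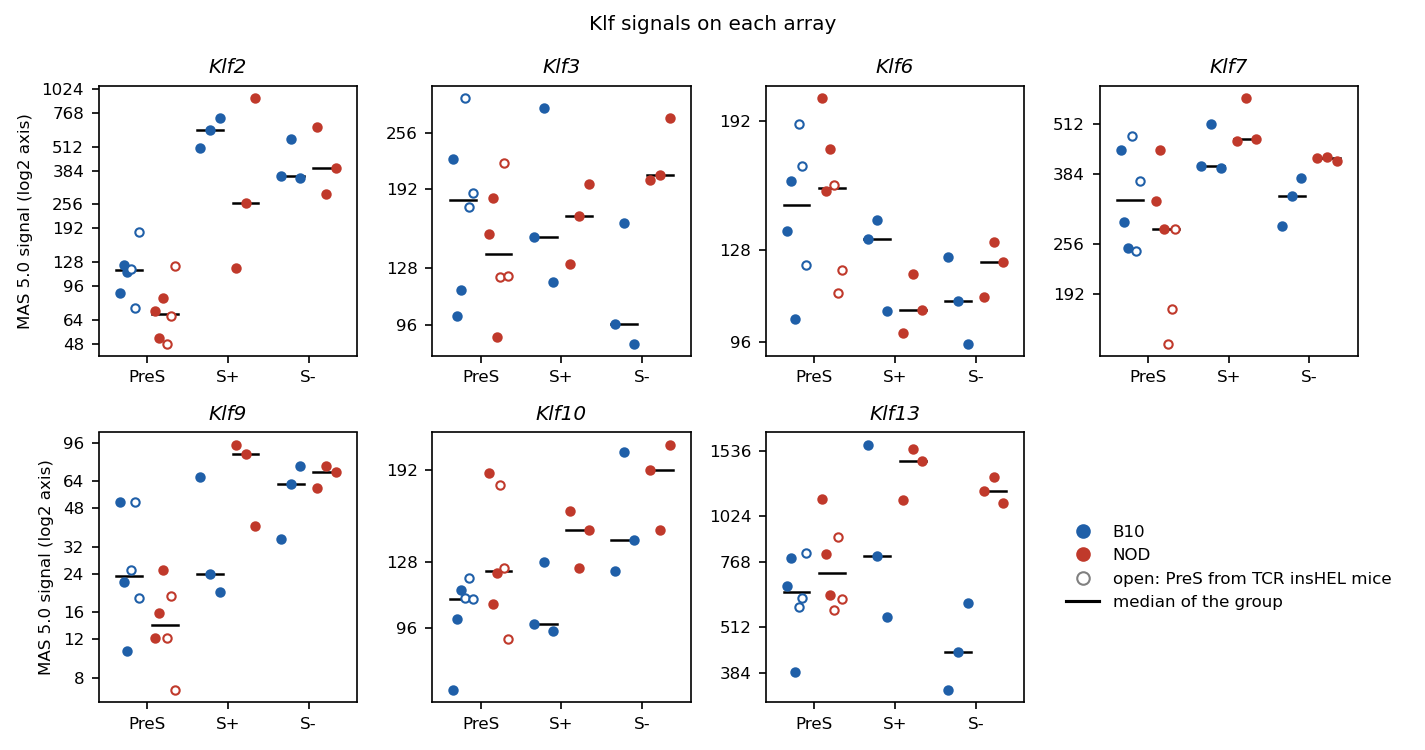
Signal of the 7 Klf genes that passed the filter, on a log2 axis, in PreS, S+ and S- thymocytes. Each point is 1 array, blue for B10 and red for NOD, open points are PreS cells of TCR insHEL mice, and bars are group medians. Klf2 rises in both strains, Klf9 in NOD, and the Klf13 points of B10 S- (345 to 596) lie below those of NOD S- (1109 to 1308).

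In NOD mice Klf2 also rose, but its S+ arrays were far apart. PreS cells gave 71.0, 51.4 and 83.3 in TCR mice and 48.0, 66.9 and 122 in TCR insHEL mice. NOD S+ arrays gave 119.5, 262 and 919. NOD S- arrays gave 652, 289 and 397. The lowest NOD S+ array was thus within the PreS range, while all NOD S- arrays were above it. The difference was 1.99 (SE 0.52, limma adjusted p = 0.0221) in S+ and 2.46 (SE 0.52, adjusted p = 0.00839) in S-. The order of the 3 S+ arrays was the reverse of their 3′ to 5′ ratios, the array at 919 having the ratio of 1.59 and the array at 119.5 that of 5.82. With the ratio as a covariate the difference was 2.58 in S+ (limma adjusted p = 0.00025), and in S- 2.11 (adjusted p = 0.00038).

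The S+ difference passed under 20 of 26 alternatives and the S- difference under 24, and single arrays decided part of this result. Without NOD S+ replicate 3 the difference in S+ was 1.195 (limma adjusted p = 0.054), without replicate 2 it was 2.08 (adjusted p = 0.0731), and without NOD S- replicate 1 that in S- was 2.13 (adjusted p = 0.0564). Without the 3 arrays of highest 3′ to 5′ ratio, of which 2 are NOD S+, the S+ value rested on 1 array and was 3.49 (adjusted p = 0.00716). Hybridization day could hardly be told apart from group in NOD, where 1 day held both an S+ and a PreS array (Klf2 difference 2.27) and none held S- and PreS. As a fixed block it left differences of 2.27 and 2.71, with adjusted p = 0.518 and 0.893.

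**Figure D2:**
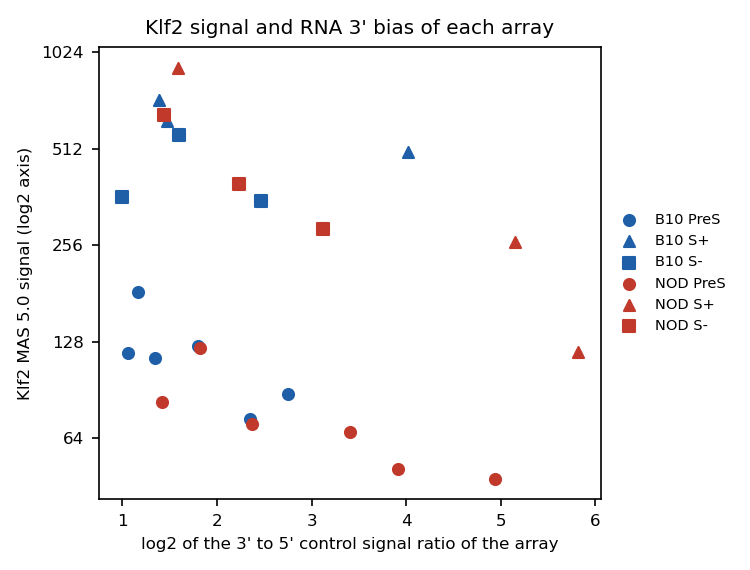
Klf2 signal of each of the 24 arrays (log2 axis) against the log2 ratio of 3′ to 5′ control signals of the same array, blue for B10 and red for NOD, with circles for PreS, triangles for S+ and squares for S-. The NOD S+ triangles run from 919 at a ratio of 1.59 to 119.5 at a ratio of 5.82, and PreS circles of both strains stay between 48.0 and 184.

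No difference of Klf2 between the selection fates passed the test. The difference of S- from S+ was -0.57 in B10 (95% interval -1.24 to 0.11, limma adjusted p = 0.548) and 0.47 in NOD (-0.82 to 1.75, adjusted p = 0.861). The NOD value turned to -0.47 with the 3′ to 5′ ratio as a covariate, and to -1.12 without the 3 arrays of highest ratio. Ordered by median, Klf2 was lowest in NOD PreS, then B10 PreS, NOD S+, B10 S-, NOD S- and B10 S+, and each neighbouring pair of ranges overlapped. Between strains NOD differed from B10 by -0.63 in PreS (adjusted p = 0.343), by -1.03 in S+ (interval -2.06 to 0.01, adjusted p = 0.267) and by 0.01 in S- (interval -1.03 to 1.04). The value in S+ turned on NOD S+ replicate 3, without which it was -1.82 (adjusted p = 0.00607), while without the 3 arrays of highest 3′ to 5′ ratio it was 0.56 (adjusted p = 0.98). The change from PreS to S+ differed between the strains by -0.40 (SE 0.61, adjusted p = 0.926). The 3′ to 5′ ratio was also higher in NOD PreS (median 2.89) than in B10 PreS (median 1.57). With this ratio as a covariate NOD differed from B10 in Klf2 by -0.11 in PreS, -0.23 in S+ and 0.25 in S-. Their limma adjusted p values were 0.892, 0.875 and 0.71.

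Klf9, a repressor that responds to nuclear hormone receptors, was near background in PreS cells and higher in selected cells of NOD. Of its 7 probesets 1 passed the filter, and it passed only through NOD S+, B10 S- and NOD S-, the groups in which it was high, so that its differences from PreS are given as a description and not as support for a rise of the family. NOD PreS arrays gave 12.2, 15.8 and 25.0 in TCR mice and 12.2, 19.0 and 7.0 in TCR insHEL mice. NOD S+ arrays gave 93.9, 84.8 and 39.6, and NOD S- arrays gave 59.5, 74.8 and 70.7. No selected NOD array reached down to the PreS range. The difference was 2.04 (SE 0.36, limma adjusted p = 0.00328) in S+ and 2.04 (SE 0.36, adjusted p = 0.00282) in S-, with PreS under 32 so that the size is not exact. With hybridization day as a block the differences were 2.25 in S+ and 2.35 in S-, and neither passed (adjusted p = 0.432 and 0.889).

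In B10 the Klf9 probeset overlapped between groups, with a lowest, median and highest PreS signal of 10.6, 23.4 and 51.3, S+ arrays at 67.0, 23.9 and 19.8, and S- arrays at 34.6, 62.2 and 74.7. Neither B10 difference passed the test, S+ being at 0.17 (adjusted p = 0.86) and S- at 0.91 (adjusted p = 0.268). The changes in the strains were not shown to differ, at 1.87 (SE 0.64, adjusted p = 0.3) for S+ and 1.14 (SE 0.64, adjusted p = 0.456) for S-. Within NOD S+ the array of lowest 3′ to 5′ ratio had the lowest Klf9 signal, and without the 3 arrays of highest ratio the S+ difference was 1.24 (limma adjusted p = 0.245), while S- kept 2.02 (adjusted p = 0.00346). The highest signals of Csf1r (654 and 439.6 on NOD S+ replicates 1 and 2) were on the same arrays as those of Klf9. In NOD S-, where Klf9 was at 59.5 to 74.8, 1 of 8 measured macrophage and dendritic cell markers was called higher than in PreS (Ctss). Whether other cells carry part of the Klf9 signal was not tested.

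Klf13, which drives the chemokine gene Ccl5 late in T cell activation, rose in NOD S+. Its probeset of highest signal gave 1137, 808 and 625.2 in NOD PreS cells of TCR mice and 568, 895 and 609 in those of TCR insHEL mice. NOD S+ arrays gave 1129.5, 1559 and 1446, and NOD S- arrays gave 1197, 1308 and 1109. All but 1 of the PreS arrays lay below every selected array. The S+ difference was 0.90 (SE 0.24, limma adjusted p = 0.0235), and that of S- was 0.61 (SE 0.24, adjusted p = 0.117). The S+ call held under 21 of 26 alternatives. It was lost with hybridization day as a block (1.04, adjusted p = 0.776) and with no filter on low signal (adjusted p = 0.0645). Against the PreS arrays of TCR mice alone it was also lost (0.80, adjusted p = 0.104). Without NOD S+ replicate 2 the S+ value was 0.77 (adjusted p = 0.127), and it was 0.82 (adjusted p = 0.257) without the 3 arrays of highest 3′ to 5′ ratio. The second probeset of Klf13 gave 1.06 for S+ (adjusted p = 0.252), and 1.65 for S- (adjusted p = 0.097).

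In B10 no difference of Klf13 passed the test. PreS arrays had a lowest, median and highest signal of 387, 638 and 814. S+ arrays gave 1599, 795 and 545, and S- arrays gave 345, 437 and 596. The S- arrays overlapped both other groups. The S+ difference was 0.51 (adjusted p = 0.334), that of S- was -0.49 (adjusted p = 0.391), and S- against S+ gave -0.997 (interval -1.81 to -0.18, unadjusted p = 0.0206, adjusted p = 0.298). In B10 S- against S+ 0 of 7 members were called by limma, 1 had an unadjusted p under 0.05 and the study's own kind of test, adjusted in the same way, called 0, where 1.29% of all probesets were called higher and 0.374% lower.

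Klf13 was the 1 member called between the strains, being higher in NOD S- than in B10 S-. Every NOD S- array (1109 to 1308) lay above every B10 S- array (345 to 596), a difference of 1.41 (SE 0.34, limma adjusted p = 0.0214), or 2.65-fold, in a comparison in which 2.32% of all probesets were called. The second probeset had S- arrays of 570, 368 and 460 in NOD and of 125, 202 and 224 in B10 and a like difference of 1.36, which did not pass (adjusted p = 0.335). The call held under 29 of 36 alternatives, with values of 1.21 to 1.61. It was lost when B10 S- replicate 1 or 2, or any 1 of the NOD S- arrays, was left out (adjusted p between 0.0573 and 0.14), and with hybridization day as a block (1.33, adjusted p = 0.234). On the 1 day that held an S- array of each strain the difference was 0.82. In S+ the strain difference was 0.70 (adjusted p = 0.259), and in PreS 0.31 (adjusted p = 0.482). There the second probeset had the opposite sign, at -0.46 in S+ (adjusted p = 0.734) and -0.72 in PreS (adjusted p = 0.403).

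**Figure D3:**
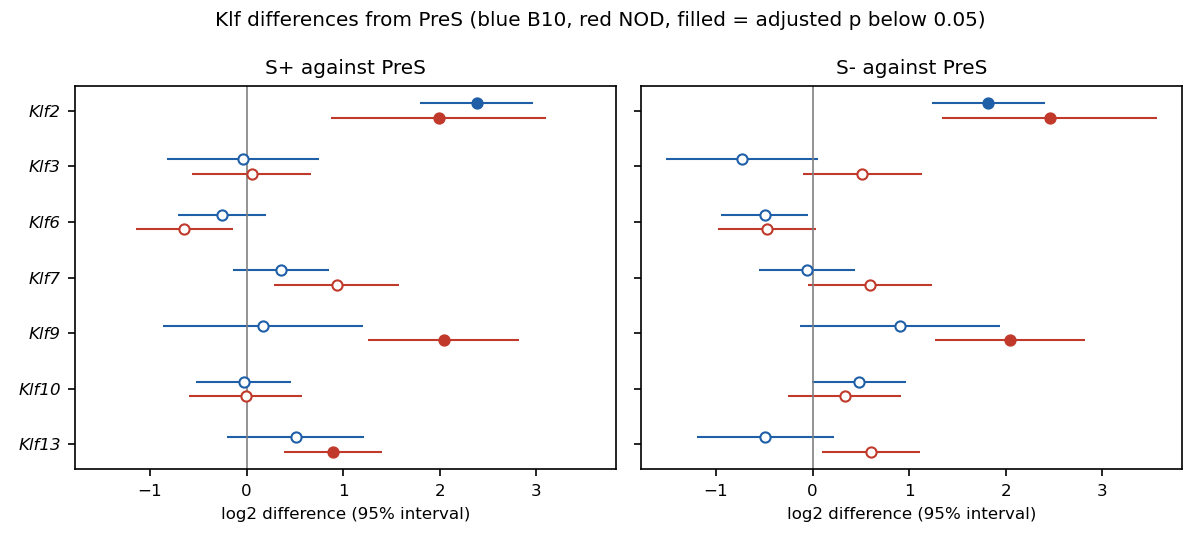
Log2 difference of S+ (left) and S- (right) from PreS for the 7 Klf genes, with 95% intervals, blue for B10 and red for NOD, and filled points where the limma adjusted p was below 0.05. Klf2 is filled in all 4 comparisons, Klf9 in both of NOD and Klf13 in NOD S+, and the other points are open.

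No difference of the remaining members passed the test. Klf3, a repressor that recruits the CtBP corepressors, had probeset signals between 87.1 and 305 over all arrays. Its B10 S- arrays gave 96.4, 161 and 87.1 and its NOD S- arrays 201, 206 and 276, without overlap. That strain difference was 1.02 (SE 0.39, unadjusted p = 0.0155, adjusted p = 0.201), and 0.41 by the second probeset. It passed with hybridization day as a block (1.89, adjusted p = 0.0249) and with array weights (0.99, adjusted p = 0.0247). From PreS the Klf3 difference was -0.04 in S+ and -0.73 in S- of B10, and 0.05 and 0.51 in NOD, each with an adjusted p over 0.05. The second probeset gave 0.58 and 0.08 in B10 and 0.15 and 0.31 in NOD, also with adjusted p over 0.05.

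Klf6, an activator found in many tissues, had signals between 95.5 and 206 by its probeset of highest signal. NOD PreS arrays gave 206, 154 and 176 in TCR mice and 157, 112 and 120 in TCR insHEL mice, and NOD S+ arrays gave 98.6, 119 and 106, overlapping the lowest PreS array. The difference was -0.65 (SE 0.23, limma adjusted p = 0.0786). It was -0.26 in B10 S+, -0.50 in B10 S- and -0.47 in NOD S-, all with adjusted p over 0.05, so that Klf6 was lower than PreS in all 4 comparisons without passing a test in any.

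Klf7, a factor best known from developing neurons, lay just outside the threshold in NOD S+. Its probeset of highest signal gave 467, 596 and 471 in NOD S+ and 421, 424 and 415 in NOD S-, above a PreS lowest, median and highest of 144, 279 and 443 except for 1 PreS array in the case of S-. The difference from PreS was 0.93 (SE 0.30, adjusted p = 0.0527) for S+, which passed under 8 of 26 alternatives, and 0.59 (adjusted p = 0.226) for S-. The S+ values of its other 3 probesets were 0.70 (adjusted p = 0.15), 0.62 (adjusted p = 0.616) and -0.19 (adjusted p = 0.699). In B10 Klf7 differed from PreS by 0.35 in S+ (arrays at 402, 514 and 399) and by -0.06 in S- (284, 338 and 375).

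Klf10, known as the TGF-β inducible early gene, had signals between 73.1 and 214 by its 1 probeset. B10 S- arrays gave 124, 208 and 141 against a PreS range of 73.1 to 119.5, and NOD S- arrays gave 192, 148 and 214 against 91.4 to 189.5. The B10 S- arrays lay above all B10 PreS arrays, and the difference was 0.48 (SE 0.23, unadjusted p = 0.0547, adjusted p = 0.213) in B10 and 0.33 (adjusted p = 0.462) in NOD. The S+ differences from PreS were -0.03 in B10 and -0.01 in NOD.

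Klf4, like Klf2 a factor of T cell quiescence, lay below the filter. Its 2 probesets ran from 6.6 to 57.2 and from 3.1 to 33.0, and the highest value of each was on NOD S+ replicate 1, the array of highest 3′ to 5′ ratio. No condition had 32 on all 3 arrays, so no test was made and no difference is given.

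Read by comparison, 3 of 7 members were called higher in NOD S+ (Klf2, Klf9 and Klf13) and 2 in NOD S- (Klf2 and Klf9), where 6.13% and 5.51% of all probesets were called higher and 8.66% and 5.68% lower. Klf9 passed the filter only through groups in which it was high, and without it 2 of 6 members were called in NOD S+ and 1 of 6 in NOD S-. None was called lower. The study's own kind of test, adjusted in the same way, called 2 of 7 in NOD S+ and 2 of 7 in NOD S-. The median difference of the 7 members was 0.90 in NOD S+ and 0.59 in NOD S-, beside 0.02 over all probesets in each, and 0.17 and -0.06 in B10 S+ and S-, beside 0.04 and 0.01. These medians include Klf9, were not taken without it, and are not support for a rise of the family. In NOD S+ the other members ran from -0.65 (Klf6) to 1.99 (Klf2), with Klf3 at 0.05 and Klf10 at -0.01. S+ and S- of a strain are set against the same PreS arrays, so their values are not separate evidence. In NOD S- against S+ no member was called and 0% of probesets were, with 0 members under an unadjusted p of 0.05. Between strains 0 members were called by limma in PreS (4.13% of probesets called, 1 member under an unadjusted p of 0.05) and 0 in S+ (3.7%, 1 member under it).

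The test of whether the changes differ between the strains called no member in S+ against PreS (0.358% of probesets called), S- against PreS (0.101%) or S- against S+ (0.148%), with 1, 2 and 1 members under an unadjusted p of 0.05 and 0 by the study's own kind of test after adjustment. The 2 in S- against PreS were Klf3 (1.25, SE 0.48, adjusted p = 0.31) and Klf13 (1.10, SE 0.41, adjusted p = 0.301). By their probesets of highest signal both were below 0 in B10 and above 0 in NOD. The second probeset of Klf3 was above 0 in both, at 0.08 and 0.31, a strain difference of 0.23 (limma adjusted p = 0.854). That of Klf13 gave -0.44 and 1.65, a strain difference of 2.09 (adjusted p = 0.308). Before selection, limma called for TCR insHEL against TCR 0 members in B10 PreS (0% of probesets) and 0 in NOD PreS (0.0312%), with 0 and 1 members under an unadjusted p of 0.05. That 1 was Klf7 at -0.76 (SE 0.28, unadjusted p = 0.0188, adjusted p = 0.439). Its other 3 probesets gave -0.72 (limma adjusted p = 0.455), -2.03 (adjusted p = 0.427, from signals down to 8.3) and 0.025 (adjusted p = 0.99).

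Of 11 genes that Klf2 is known to control in T cells, S1pr1 and Itgb7 rose in all 4 comparisons with PreS. Among the 11 listed 7 were measured, and 2 were called higher and 1 lower in each B10 comparison with PreS, 2 higher in NOD S+ and 3 higher in NOD S-. Over all probesets 7.37% and 4.42% were called higher and 9.44% and 6.8% lower in B10 S+ and S-, and 6.13% and 5.51% higher and 8.66% and 5.68% lower in NOD S+ and S-, which is also the background of the lists that follow. S1pr1, the receptor through which thymocytes follow sphingosine phosphate out of the thymus, had PreS signals of 28.7 to 59.7 in B10 and 26.4 to 39.6 in NOD. Its S+ arrays gave 179.6, 270.1 and 147 in B10 and 183, 132 and 171 in NOD, and its S- arrays gave 159, 135 and 126 and 186, 396 and 145. No selected array overlapped PreS, and the differences were 2.01 and 1.501 in B10 and 2.10 and 2.54 in NOD (limma adjusted p between 4.9e-05 and 0.00098). The PreS signals of both strains reached under 32, so that these sizes are not exact. Unlike Klf2, S1pr1 was not low on the NOD S+ array of highest 3′ to 5′ ratio.

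Itgb7, an integrin chain of gut homing, was 1 of the 3 genes whose pattern was most like that of Klf2. It gave 1063, 1659 and 1246 in B10 S+ and 562, 624 and 1319 in NOD S+, with the same NOD array highest as for Klf2. The differences from PreS were 1.88 and 1.43 in B10 and 1.74 and 2.09 in NOD (adjusted p between 1.3e-05 and 0.00956). Eomes, a T-box factor of memory CD8 cells, was called in NOD S- (1.16, limma adjusted p = 0.0204) and in none of the other 3 comparisons with PreS, and the call was lost without NOD S- replicate 1 (1.02, adjusted p = 0.104) or replicate 2 (1.07, adjusted p = 0.0988).

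Cdkn1a, the cell cycle inhibitor p21 that Klf2 can activate, fell in B10. Its B10 PreS arrays ran from 57.4 to 177, its S+ arrays gave 30.9, 28.2 and 13.2 and its S- arrays 35, 39.3 and 59.8. The B10 differences were -2.35 (SE 0.36, limma adjusted p = 0.00041) and -1.45 (SE 0.36, adjusted p = 0.0178). All 3 B10 S+ arrays were under 32, so that the size of the fall in S+ is not exact. The fall in S- was lost without B10 S- replicate 1 (-1.33, adjusted p = 0.083) or replicate 2 (-1.40, adjusted p = 0.0802). In NOD S+ Cdkn1a gave 169, 78.0 and 57.2, a difference of 0.33 (adjusted p = 0.553). Cxcr3, Myc and Zbtb16 were measured and not called in any comparison with PreS.

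**Figure D4:**
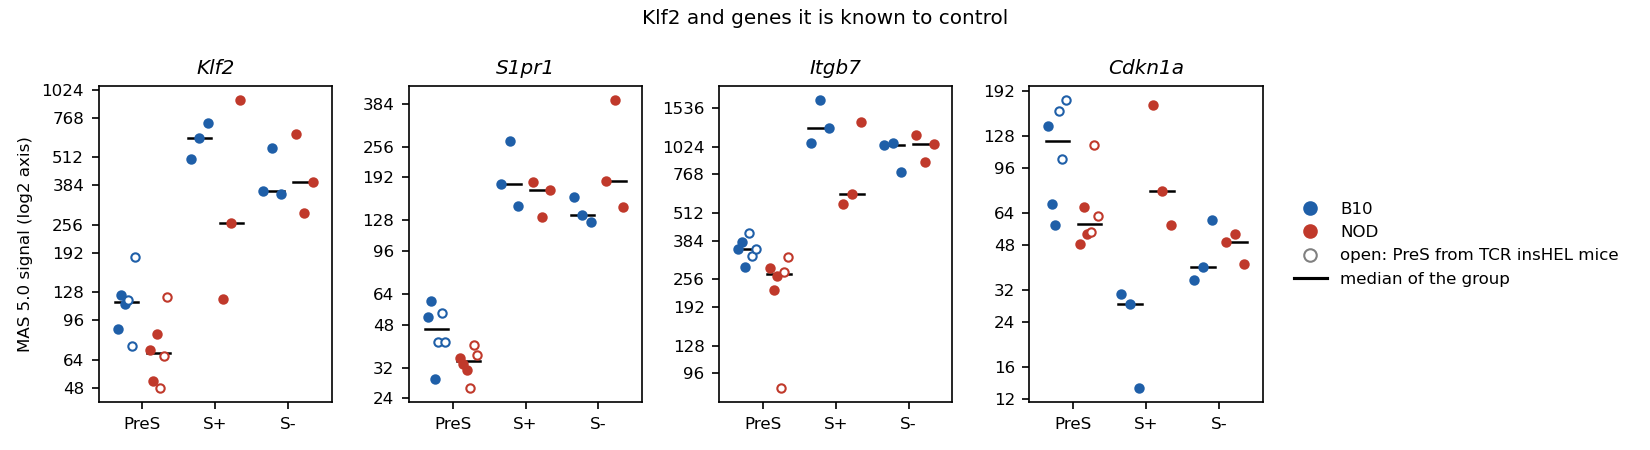
Signals of Klf2, S1pr1, Itgb7 and Cdkn1a on each array (log2 axis), drawn as in the plot of the 7 Klf genes. S1pr1 (26.4 to 59.7 in PreS, 126 to 396 after) and Itgb7 rise with Klf2, and Cdkn1a falls in B10 S+ to between 13.2 and 30.9.

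The pattern of each member over the 24 arrays was compared with all other measured genes as a description. All arrays share their groups and RNA quality, so r carries both. Klf2 was most like Rgs19, an inhibitor of G protein signals (r = 0.953), Itgb7 (0.934) and Rasa3, which switches off Ras (0.934). Klf13 was most like Tnrc6c, a protein of microRNA silencing (0.889), Nav2 (0.851) and Prr12 (0.847). Klf7 went with Nfix (0.861), Son (0.851) and Tecpr1 (0.842), and Klf9 with Mapre2 (0.838), Zfp36l1, an mRNA decay protein (0.816), and Abcc1 (0.813). For Klf3 (Iqgap2 0.718, Emsy 0.7 and Smarcc1 0.685), Klf6 (Lbr 0.747, Stard4 0.737 and Mdm1 0.723) and Klf10 (Srek1ip1 0.701, Zfp937 0.676 and Pcf11 0.673) the closest genes were less alike.

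Upstream of the family, 8 of 11 listed signal genes were measured. Foxo1, which switches on Klf2 and S1pr1 in naive T cells, rose in B10 S+ (1.77, SE 0.31, limma adjusted p = 0.00106), NOD S+ (2.27, adjusted p = 0.00405) and NOD S- (2.35, adjusted p = 0.00312). In B10 S- it was 0.84 (adjusted p = 0.1). Its signals in B10 were 157 to 424 in PreS, 1233, 1108 and 655 in S+ and 466, 662 and 433 in S-, so that no selected B10 array fell within the PreS range. In NOD they were 71.1 to 427 in PreS, 1066, 1010 and 802 in S+ and 863, 1326 and 1072 in S-.

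Mef2d, a partner of Erk5 signals, was called higher in NOD S+ (1.05, adjusted p = 0.0486) and NOD S- (1.25, adjusted p = 0.0272), under 8 and 19 of 26 alternatives. Pik3r1, a regulatory subunit of PI3-kinase, was called lower in NOD S+ (-1.02, adjusted p = 0.0388, under 11 of 26), and the kinase Akt1 lower in B10 S- (-0.61, adjusted p = 0.0467, under 11 of 26). Mapk7, which encodes Erk5 itself, was not called, at 0.85 and -0.68 in B10 and 1.08 and 2.35 in NOD. With hybridization day as a block all calls of NOD against PreS among the genes named from this and the other gene lists were lost. In B10 S- the same block ended those of S1pr1 (adjusted p = 0.111), Itgb7 (0.0671), Cdkn1a (0.066), Tgfbr2 (0.406), Smad7 (0.488), Sap30 (0.188) and Akt1 (0.32), and the call of Skil held (0.0476), while in B10 S+ the calls of these lists held.

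Tgfbr2, Smad7 and Skil of the TGF-β pathway rose in all 4 comparisons with PreS, while no difference of Klf10 passed the test. Of 14 genes listed 8 were measured, and 3 were called higher in B10 S+ (7.37% of all probesets), B10 S- (4.42%) and NOD S- (5.51%) and 4 in NOD S+ (6.13%), none lower. Tgfbr2, the ligand-binding receptor chain, gave differences of 1.52 and 0.88 in B10 and 1.21 and 1.60 in NOD. Smad7, a feedback inhibitor, gave 2.16 and 1.25 in B10 and 3.33 and 3.42 in NOD, from PreS signals of 24.7 to 74.8 and 3.2 to 42.8, with 4 of the 6 NOD PreS arrays under 32 so that the NOD size is not exact. Skil, the SnoN repressor of Smad proteins, gave 1.72 and 2.00, and 1.76 and 1.49. Smad4, the shared Smad partner, was called in NOD S+ alone (1.15, adjusted p = 0.0232), which was lost without NOD S+ replicate 1 (1.04, adjusted p = 0.107) or 2 (0.85, adjusted p = 0.144). Single S+ or S- arrays also decided Skil in NOD (1.28 to 1.56, adjusted p from 0.0621 to 0.134 without NOD S+ replicate 1 or 2 or NOD S- replicate 2 or 3). Tgfbr2 was lost in B10 S- without its replicate 2 or 3 (adjusted p = 0.1 and 0.0751) and in NOD S+ without its replicate 2 (adjusted p = 0.0842). Smad7 was lost in B10 S- without its replicate 1 (1.26, adjusted p = 0.0824) or 2 (1.00, adjusted p = 0.165), or without B10 PreS TCR replicate 3 (1.17, adjusted p = 0.0518).

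Of 15 listed cofactors of Klf proteins 12 were measured, and Sap30, a subunit of the Sin3 histone deacetylase complex, fell in all 4 comparisons with PreS (-2.08 and -1.43 in B10, -1.05 and -1.22 in NOD, limma adjusted p between 0.00012 and 0.0382). Its signals were 199 to 459 in B10 PreS and 138 to 320 in NOD PreS, against 56.8 to 153 on the 12 selected arrays. The call in NOD S+ was kept under 14 of 26 alternatives and lost without NOD S+ replicate 1 (-1.07, adjusted p = 0.11) or 2 (-0.81, adjusted p = 0.194), and that in NOD S- without NOD S- replicate 2 (-1.24, adjusted p = 0.0766) or 3 (-1.02, adjusted p = 0.142). Hdac2, a deacetylase of the same complex, was called lower in NOD S+ (-0.89, adjusted p = 0.0281, under 17 of 26 alternatives). Ctbp1 and Ctbp2, partners of Klf3, were not called. Of the other Klf and Sp genes 8 of 19 were measured, among them Klf5, Klf16 and Sp1, and 0 were called by limma in any of these comparisons, with median differences of 0.37 and 0.28 in B10 S+ and S- and 0.19 and -0.03 in NOD, beside 0.05, 0.01, 0.05 and 0.04 over all genes.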

How the data were processed

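Per the labels, RNA of sorted thymocytes was extracted with Trizol and spin columns and labelled by a small-sample protocol. The authors amplified it in 2 rounds and deposited MAS 5.0 signals, intensity on a linear scale scaled to a trimmed mean of 150 per array, for 22690 probesets. The experiment files gave the hybridization day (9 days).

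Here 64 control probesets were removed, 33 values of 0 set to 0.1, and log2 values standardized per array. Probesets at 32 or more on all 3 arrays of at least 1 of 8 conditions were kept (12838 of 22626), in place of present calls, not used here. Of 22626 probesets 20380 had 1 symbol, 691 several and 1555 none. A gene was represented by its kept probeset of highest mean signal. Genes named from lists passed in at least 1 comparison within a strain. Genes named as not called (such as Mapk7, Ctbp1 and Cxcr3) were chosen after their values were seen.

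limma 3.58.1 in R 4.3.3 fitted 12 arrays per strain for comparisons with PreS and of S- with S+, all 24 for strains, and 4 groups for PreS genotypes. P values were adjusted by Benjamini and Hochberg over kept probesets, threshold 0.05. The scripts were tested on simulated data. Alternatives covered scaling, filter, blocks, weights, RNA quality, test and each array left out. The t-test at the methods' own thresholds and leaving out the 3 arrays of highest 3′ to 5′ ratio were chosen after seeing the data. The members, lists and tests were chosen with earlier results of these data known. Pools are described as independent, replicate correlation was 0.843 to 0.967, and the number of arrays limits the precision. Arrays with the same replicate number were not taken as pairs (mean correlation of deviations 0.0508). Promoter sequences are from RefSeq.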

Additional observations from a re-analysis of the deposited data

Results flagged for a closer look

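The change of Cdkn1a from PreS to S+ differed between the strains by 2.69 (SE 0.52, limma adjusted p = 0.0203), being -2.35 in B10 and 0.33 in NOD. It was lost without NOD S+ replicate 1 (2.23, adjusted p = 0.0934), without B10 S+ replicate 3 (2.33, adjusted p = 0.077), without the 3 arrays of highest 3′ to 5′ ratio (1.98, adjusted p = 0.387), with hybridization day as a block (2.45, adjusted p = 0.198) and with no filter on low signal (2.69, adjusted p = 0.0542). All 3 B10 S+ arrays of Cdkn1a were under 32, so that its size is not exact. Among 52 PreS groups of 6 arrays examined, for the Klf probesets and the list genes named above, 4 held an array far from the others, where chance alone gives about 1 in 20 such groups. Klf10 was at 73.1 on B10 PreS TCR replicate 1, against 99.7 to 119.5 on the other B10 PreS arrays. NOD PreS TCR insHEL replicate 1, whose 3′ to 5′ ratio was 4.94, had Smad7 at 3.2, against 18.8 to 42.8, and Itgb7 at 82.3, against 229 to 323. Cdkn1a was at 117.9 on NOD PreS TCR insHEL replicate 2, against 48.2 to 67.4.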

How the results depend on the processing

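Of 192 counts of called members under the settings tried 174 stayed within 1.5 times the count reported, and of 240 with 1 array left out 231 did. Many of these set 0 beside a reported 0, and 2 beside 3 also stayed. They do not show that the same members were called. With hybridization day as a block, NOD against B10 in S- lost Klf13 (limma adjusted p = 0.234) and gained Klf3 (adjusted p = 0.0249) at an unchanged count. No member changed direction where it was called. Without a filter 1 member was called in NOD S+ against PreS and 0 in NOD against B10 in S-. With a filter at 64 Klf9 was not tested and 1 was called in NOD S-. With hybridization day as a block 0 were called in NOD S+ and 0 in NOD S-, as few days held more than 1 group. The 3′ to 5′ ratio as a covariate gave 2 in B10 S- (adding Klf9) and 1 in NOD against B10 in PreS (Klf9, lower in NOD). Array weights gave 3 in NOD against B10 in S+, 2 in S-, and 1 each for the strain difference in S+ and in S- against PreS. The methods' t-test at its own unadjusted thresholds gave 1 in NOD against B10 in PreS, 1 in each of those strain differences and 1 in NOD PreS TCR insHEL against TCR. Without the 3 arrays of highest ratio 1 was called in NOD S+, with all 24 arrays in 1 fit 5, and with PreS arrays of the same mice 1; the cause was not tested. Leaving out 1 array gave 1 to 4 called in NOD S+ against PreS, 1 to 2 in NOD S-, 0 to 1 in NOD against B10 in S+ and 0 to 1 in S-. With the replicate number as a block the counts were 1 in B10 S+, 1 in B10 S-, 3 in NOD S+ and 2 in NOD S- (Klf2 there at an adjusted p of 0.0154 and 0.00594), the same as without it, and it changed no other member count. In these arrays the 3 pools per group limit the precision, and signals under 32 have no reliable order.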
